A study of Mus musculus with 12 samples.

Results

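The Zfp genes carry the mouse symbol for zinc finger protein followed by a number. They are one of the largest groups of nuclear proteins in mammals, and most of their members hold arrays of C2H2 zinc fingers, short folds built around a zinc ion that read the bases of DNA. Many also carry a KRAB domain, which recruits TRIM28 (also called KAP1). TRIM28 in turn assembles the histone H3 lysine 9 methyltransferase SETDB1 and heterochromatin protein 1, and this complex silences retrotransposons and keeps the methylation of imprinted regions through early embryogenesis. In the brain, zinc finger proteins of this group also act in neural progenitors, in RNA binding and in neurotrophin signalling.

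Of 304 genes of the array whose symbol is Zfp and a number, 184 had at least 1 probe with a detection p-value under 0.05 on 10 or more of the 12 arrays and are described here, together with Trim28. The detection p-value compares a probe with the negative control beads of its array. Of the 184 genes, 167 were detected on 12 arrays, 9 on 11 and 8 on 10. The other 120 genes were detected on 6 to 9 arrays (19 genes), on 1 to 5 arrays (35) or on none (66). Just inside the limit, at 10 arrays, lay among others Zfp418, Zfp423, Zfp507 and Zfp526, whose log2 signals reached 5.83, 5.98, 6.02 and 5.91. Just outside it, at 9 arrays, lay Zfp13, Zfp646, Zfp711 and Zfp760, whose log2 signals reached 6.09, 6.45, 5.65 and 6.31.

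RNA came from the whole hippocampus of male C57BL/6J mice aged 12 weeks. The dams of the ethanol-exposed mice (n = 6 mice) had free access to dilute ethanol in place of water between 0.5 and 8.5 days after mating (dpc). The dams of the controls (n = 6 mice) drank water. No mouse carried a transgene or a deletion. The litter of each mouse is not given, so the spread between mice may in part be that between litters. Each of 2 chips held 3 mice of either group (replicates 1 to 3 on chip 1, replicates 4 to 6 on chip 2). In RNA of a whole tissue, fewer cells of a type and less RNA per cell cannot be told apart.

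Between 18644 and 20268 of 45281 probes were detected per array, and the group means differed by 27 probes (two-sided exact permutation test over 924 splits of the mice, p = 0.944). Among markers of hippocampal cell types, those of CA pyramidal cells (5 of 5 measured) averaged 10.06 to 10.65 in log2 signal. Of 5 dentate granule cell markers, 2 were detected on every array, and Dsp, Tdo2 and Calb1 were not among the genes tested. Markers of neighbouring tissue differed between mice. The 3 measured of 6 choroid plexus markers averaged 6.87 to 11.05 in ethanol-exposed mice and 7.25 to 12.41 in controls, with the highest values in control replicates 1 and 3 and ethanol-exposed replicate 5. Ependymal markers (4 of 5 measured) averaged 6.08 to 6.99 and 6.36 to 8.16, and thalamus and habenula markers (4 of 5 measured) 7.91 to 8.34 and 7.76 to 7.96. Signals on these arrays have no true zero. The other 3 choroid plexus markers (Folr1, Kcnj13 and Enpp2) were below the detection limit set for testing.

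A promoter (250 bases before to 50 bases after the start of the gene, RefSeq, GRCm38.p6) was at hand for 150 of the 184 genes. The promoters of the genes with the smallest p-value on the higher and on the lower side, and that of Trim28, are shown because CG pairs are the sites of DNA methylation, the mark that the TRIM28 complex maintains at its targets. They are written 5′ to 3′ on the strand of the gene, with CG pairs in capitals.
Zfp622, chr15:25984116-25984415, + strand: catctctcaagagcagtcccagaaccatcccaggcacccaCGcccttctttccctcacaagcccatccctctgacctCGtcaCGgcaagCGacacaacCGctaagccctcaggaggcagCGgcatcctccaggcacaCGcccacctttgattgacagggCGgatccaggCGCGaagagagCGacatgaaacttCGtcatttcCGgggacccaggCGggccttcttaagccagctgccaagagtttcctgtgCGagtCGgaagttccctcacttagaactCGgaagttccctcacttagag
Zfp128, chr7:12880928-12881227, + strand: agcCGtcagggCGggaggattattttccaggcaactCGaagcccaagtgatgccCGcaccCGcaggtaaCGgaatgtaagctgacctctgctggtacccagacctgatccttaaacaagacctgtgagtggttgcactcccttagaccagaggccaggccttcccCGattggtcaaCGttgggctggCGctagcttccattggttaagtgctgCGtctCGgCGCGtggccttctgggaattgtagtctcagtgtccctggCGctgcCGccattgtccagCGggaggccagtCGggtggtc
Zfp106, chr2:120563810-120564109, - strand: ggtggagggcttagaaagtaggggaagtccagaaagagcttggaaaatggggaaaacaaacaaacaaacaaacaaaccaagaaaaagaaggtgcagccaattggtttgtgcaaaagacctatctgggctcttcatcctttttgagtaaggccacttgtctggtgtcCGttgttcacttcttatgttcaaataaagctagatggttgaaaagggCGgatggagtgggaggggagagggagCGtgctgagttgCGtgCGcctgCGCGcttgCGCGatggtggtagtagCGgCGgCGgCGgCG
Trim28, chr7:13023902-13024201, + strand: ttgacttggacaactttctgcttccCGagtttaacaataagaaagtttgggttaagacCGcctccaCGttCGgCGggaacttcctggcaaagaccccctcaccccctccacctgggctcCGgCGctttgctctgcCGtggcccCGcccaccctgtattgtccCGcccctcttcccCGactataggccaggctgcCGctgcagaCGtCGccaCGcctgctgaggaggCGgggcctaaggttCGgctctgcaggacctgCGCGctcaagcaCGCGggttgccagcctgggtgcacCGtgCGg
The promoter of Zfp106, with 14 CG pairs, held them nearly all in its last part. Those of Zfp622 and Zfp128 held 17 each, and that of Trim28 held 23. In Zfp622 they were spread over most of the window, whereas in Zfp128 a long stretch without CG pairs separated those near its start from the rest. Zfp128 and Trim28 lie close together on chromosome 7, with 8 protein-coding genes between them. Over the 180 promoters of the 150 genes the median was 17 CG pairs (range 1 to 51). It was also 17 over the 21 promoters of the genes with a higher mean at an unadjusted p under 0.05, 20 over the 11363 promoters of all genes tested and 7 over all 32851 promoters of the mouse table. Promoters of the detected Zfp genes thus held more CG pairs than those of the table as a whole and somewhat fewer than those of the genes tested.

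The first question was whether Zfp genes were expressed differently in the hippocampus of ethanol-exposed mice. For each gene the brightest probe detected on 10 or more arrays was used, and its log2 signal was compared in a limma fit across all 19288 probes tested. After Benjamini-Hochberg adjustment over these probes, no Zfp gene and no other probe (0%) was past 0.05. The smallest adjusted p of a Zfp gene was 0.718. At an unadjusted p under 0.05, 21 of the 184 genes had a higher mean in ethanol-exposed mice and 2 a lower one. Of all probes tested, 3.36% were higher and 3.08% lower by the same rule, and with 1 probe per gene 3.79% were higher and 2.71% lower. The share of Zfp genes on the higher side, 11.4%, thus lay above this background and the share on the lower side, 1.09%, below it. Because the Zfp genes were chosen with earlier results of these data known, these shares describe the group and do not test it. The count on the higher side was 12 without ethanol-exposed replicate 2 and 13 without ethanol-exposed replicate 1 or control replicate 1, and that on the lower side was 1 without ethanol-exposed replicate 1, 4 or 5. Shares of all probes were not computed without single mice.

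The difference was small and ran through much of the group. The log2 difference (ethanol-exposed minus control) was positive for 134 of the 184 genes (72.8%), compared with 51.6% of all probes and 53.8% of all genes tested. Its median was 0.071 over the 184 genes and 0.011 over all genes, and it ranged from -0.32 to 0.41. Among the 167 genes detected on every array, which could not have entered the list through one group alone, 123 were positive and the median was 0.070. It was seen at each brightness: in 4 equal classes of probe signal, from dim to bright, the median of the Zfp genes was 0.094, 0.039, 0.098 and 0.049, against 0.007 or less for all probes. In no Zfp gene did all mice of one group lie beyond all mice of the other, as 0.264% of all probes did.

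**Figure D1:**
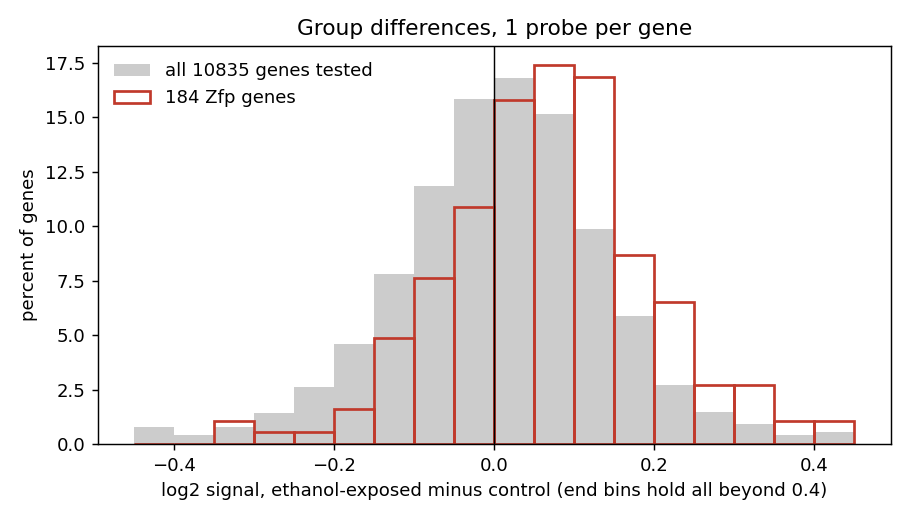
Distribution of log2 differences between ethanol-exposed and control mice (horizontal axis, bins of 0.05) as percent of genes (vertical axis), for the 184 Zfp genes (red outline) and all 10835 genes tested (grey). The Zfp genes are shifted to the right, with a median of 0.071 against 0.011, and the distributions overlap widely.

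The differences from 0 and the counts depended on the scaling of the arrays, while the distance of the Zfp genes from all probes changed little with it. When the background-corrected signals were scaled to a common median in place of quantile normalization, the median of all probes moved to -0.041 and that of the Zfp genes to 0.021. With that scaling 105 of the 184 genes were positive, 36.6% of all probes were positive, and only Zfp128 and Zfp622 were higher at an unadjusted p under 0.05, with 2 genes lower. These are 1.09% on either side, against 0.762% of all probes higher and 3.3% lower with that scaling. The distance between the median of the Zfp genes and that of all probes was 0.067 in the main setting and 0.062 with median scaling.

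The mice themselves overlapped. As the median over the 184 genes of the log2 signal minus the mean of 12 arrays, ethanol-exposed replicates 1 to 6 had 0.029, 0.037, 0.053, 0.048, 0.050 and -0.011. Control replicates 1 to 6 had -0.063, -0.042, -0.082, 0.0063, 0.048 and -0.025. The 3 controls of chip 1 lay below every ethanol-exposed mouse, whereas on chip 2 control replicate 5 was as high as the ethanol-exposed mice and ethanol-exposed replicate 6 lay below controls 4 and 5. In single mice, 48.4% to 64.7% of the Zfp genes lay above their own mean in the ethanol-exposed group and 30.4% to 62.0% in the control group.

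**Figure D2:**
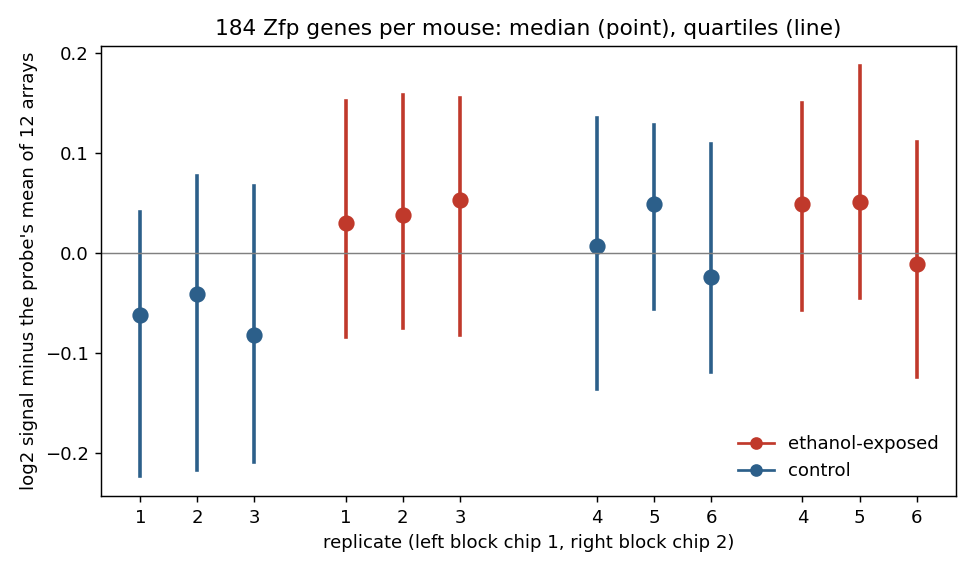
Log2 signal of the 184 Zfp genes in each mouse, as the deviation from each probe's mean of 12 arrays (vertical axis), with the median as a point and the quartiles as a line. Mice are ordered by chip and group (horizontal axis, replicate number). The controls of chip 1 sit between -0.082 and -0.042, and the controls of chip 2 reach the level of the ethanol-exposed mice.

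The same comparison was therefore made within each chip (3 against 3 mice). On chip 1 the median difference was 0.12, 134 genes were positive, and 16 were higher and 1 lower at an unadjusted p under 0.05, where 3.75% of all genes were higher and 3.95% lower. On chip 2 the median was 0.030, 105 genes were positive, and 8 were higher and 2 lower, where 2.25% of all genes were higher and 1.63% lower. The difference was positive on both chips for 77 genes (41.8%, against 30.6% of all genes) and negative on both for 22 (12.0%, against 23.7%). A test of the difference between the chips (the group by chip interaction) gave an unadjusted p under 0.05 for 10 Zfp genes, at a background of 5.27% of genes, and an adjusted p under 0.05 for none. This count was 6 without ethanol-exposed replicate 6 and also without control replicate 5, with no background computed for either. Of these 10, Zfp691 went from -0.20 on chip 1 to 0.31 on chip 2 (adjusted p = 0.732 for the interaction in limma), and Zfp644 from 0.36 to -0.078 (adjusted p = 0.724).

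**Figure D3:**
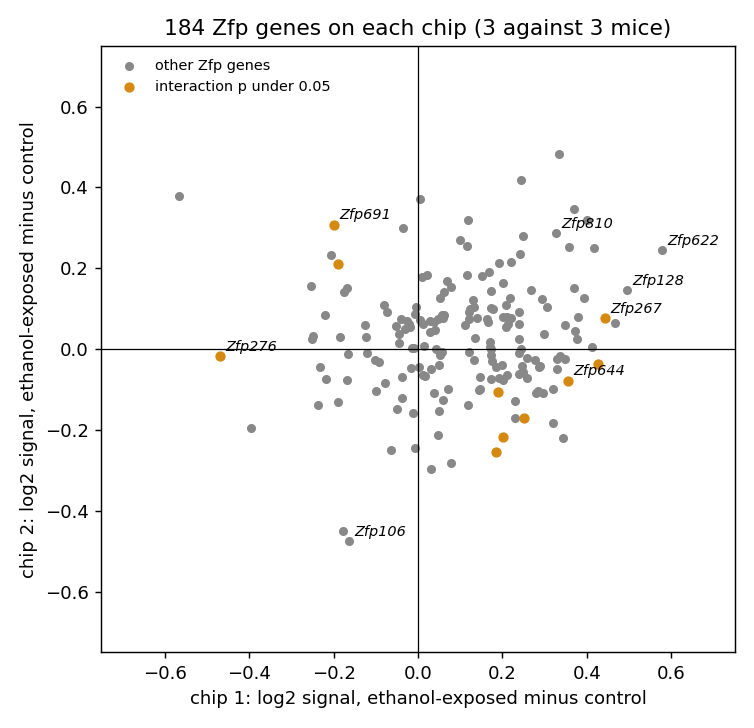
Log2 difference between ethanol-exposed and control mice on chip 1 (horizontal axis) and on chip 2 (vertical axis) for the 184 Zfp genes, with the 10 genes of an unadjusted interaction p under 0.05 in orange. There are 77 genes in the upper right quadrant and 22 in the lower left.

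Marker values of neighbouring tissue also differed between the groups, and not in the same way on both chips. The median log2 difference of the choroid plexus markers was -3.22 on chip 1 and 0.20 on chip 2, and that of the ependymal markers -1.27 and -0.085. For the thalamus and habenula markers it was 0.26 on chip 1 and 0.41 on chip 2. That list includes Slc17a6, which the authors had picked from these same arrays as higher in ethanol-exposed mice. Its part in the values of this list was therefore known beforehand. Over all mice, 0 of 3 choroid plexus, 3 of 4 ependymal, 2 of 4 thalamus and habenula, 1 of 5 astrocyte, 1 of 4 oligodendrocyte and 1 of 4 neocortex markers had an unadjusted p under 0.05, with list medians of -1.12, -0.71, 0.28, -0.16, -0.16 and 0.047. No marker of dentate granule cells, CA pyramidal cells, microglia or endothelial cells did. With the mean choroid plexus marker signal of each mouse as a covariate, a fit chosen after the data were seen, 9 Zfp genes (4.89%) were higher and 2 (1.09%) lower at an unadjusted p under 0.05, where 2.18% of all probes were higher and 2.33% lower. All 9 were among the 21, and the median of the 184 genes was 0.061. The part of the other marker lists in the result was not tested.

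The 8 genes with the smallest p on the higher side were Zfp622, Zfp128, Zfp810, Zfp386, Zfp267, Zfp94, Zfp536 and Zfp747. None passed the adjusted threshold (adjusted p of 0.718 or 0.720 in limma). For Zfp622, whose yeast counterpart acts late in the maturation of the large ribosomal subunit, the lowest, median and highest log2 signals were 5.66, 5.90 and 6.27 in ethanol-exposed mice and 5.13, 5.48 and 5.77 in controls. The difference was 0.41 (SE 0.13, limma, adjusted p = 0.718). In 4 of 6 ethanol-exposed mice the signal lay above every control, and the gene was detected on 11 arrays. Without background correction its difference was 0.17 and with an offset of 50 it was 0.25. For Zfp128, whose promoter is shown above, the values were 6.48, 6.63 and 6.86 against 6.13, 6.31 and 6.58, a difference of 0.32 (SE 0.099, limma, adjusted p = 0.718). The 3 ethanol-exposed mice of chip 1 lay above all controls and the 3 of chip 2 did not, with a difference of 0.50 on chip 1 and 0.15 on chip 2 (interaction in limma, adjusted p = 0.813). A second detected probe of Zfp128 gave 0.0063.

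Zfp810 had 7.70, 7.89 and 8.06 against 7.29, 7.62 and 7.83, a difference of 0.31 (SE 0.096), and 5 of 6 ethanol-exposed mice lay above every control. The difference was nearly the same on both chips, 0.33 and 0.29. Zfp94 showed the same order on a narrower scale, with 8.38, 8.51 and 8.69 against 8.21, 8.32 and 8.43 and a difference of 0.20 (SE 0.072). Zfp536, a repressor that holds back neuronal differentiation in neural progenitor cells, had 6.42, 6.87 and 7.13 against 6.00, 6.59 and 6.68 (difference 0.36, SE 0.13), with 5 of 6 ethanol-exposed mice above every control. Ethanol-exposed replicate 3 was the exception and lay below the control median.

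Zfp386 (difference 0.30, SE 0.10), Zfp267 (0.26, SE 0.091) and Zfp747 (0.22, SE 0.083) overlapped more. In each, all 6 ethanol-exposed mice exceeded the median of the controls, and 2, 4 and 2 lay above every control. Zfp267 differed by 0.44 on chip 1 and by 0.076 on chip 2 (one of the 10 genes above, adjusted p = 0.789 for the interaction in limma). Without background correction the differences of Zfp128, Zfp386 and Zfp536 were 0.17, 0.17 and 0.20, and those of Zfp810 and Zfp267 were 0.22 and 0.21. The other 13 genes that were higher at an unadjusted p under 0.05 were Zfp11, Zfp37, Zfp90, Zfp169, Zfp239, Zfp275, Zfp369, Zfp451, Zfp608, Zfp668, Zfp763, Zfp870 and Zfp941, with differences of 0.16 (Zfp763) to 0.36 (Zfp668).

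On the lower side Zfp106 stood first. It encodes an RNA-binding protein whose loss in mice leads to degeneration of motor neurons and muscle. Its log2 signals were 7.45, 7.87 and 7.97 in ethanol-exposed mice and 7.92, 8.12 and 8.32 in controls, a difference of -0.32 (SE 0.11, limma, adjusted p = 0.720). All 6 ethanol-exposed mice lay below the control median and 3 below every control, with -0.16 on chip 1 and -0.47 on chip 2. A second detected probe gave -0.064. Zfp276 had 5.99, 6.28 and 6.32 against 6.06, 6.54 and 6.71 (difference -0.24, SE 0.11, limma, adjusted p = 0.759). Its difference was -0.47 on chip 1, where the 3 controls were the highest mice, and it was -0.018 on chip 2 (also one of the 10 genes, adjusted p = 0.785 for the interaction in limma).

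The 6 next genes on the lower side, Zfp91, Zfp444, Zfp382, Zfp563, Zfp523 and Zfp428, had adjusted p-values of 0.759 to 0.798 in limma and differences of -0.31 to -0.12. Without background correction Zfp276, Zfp444, Zfp382 and Zfp563 differed by -0.13, -0.13, -0.13 and -0.075. Zfp91, a ubiquitin ligase of the noncanonical NF-κB pathway, had 8.96, 9.07 and 9.19 against 9.10, 9.22 and 9.42, and 4 of 6 ethanol-exposed mice lay below every control. Zfp523, related to the transcription factor known in human as ZNF143, had 11.92, 12.09 and 12.27 against 12.01, 12.22 and 12.34, with 2 ethanol-exposed mice below every control.

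**Figure D4:**
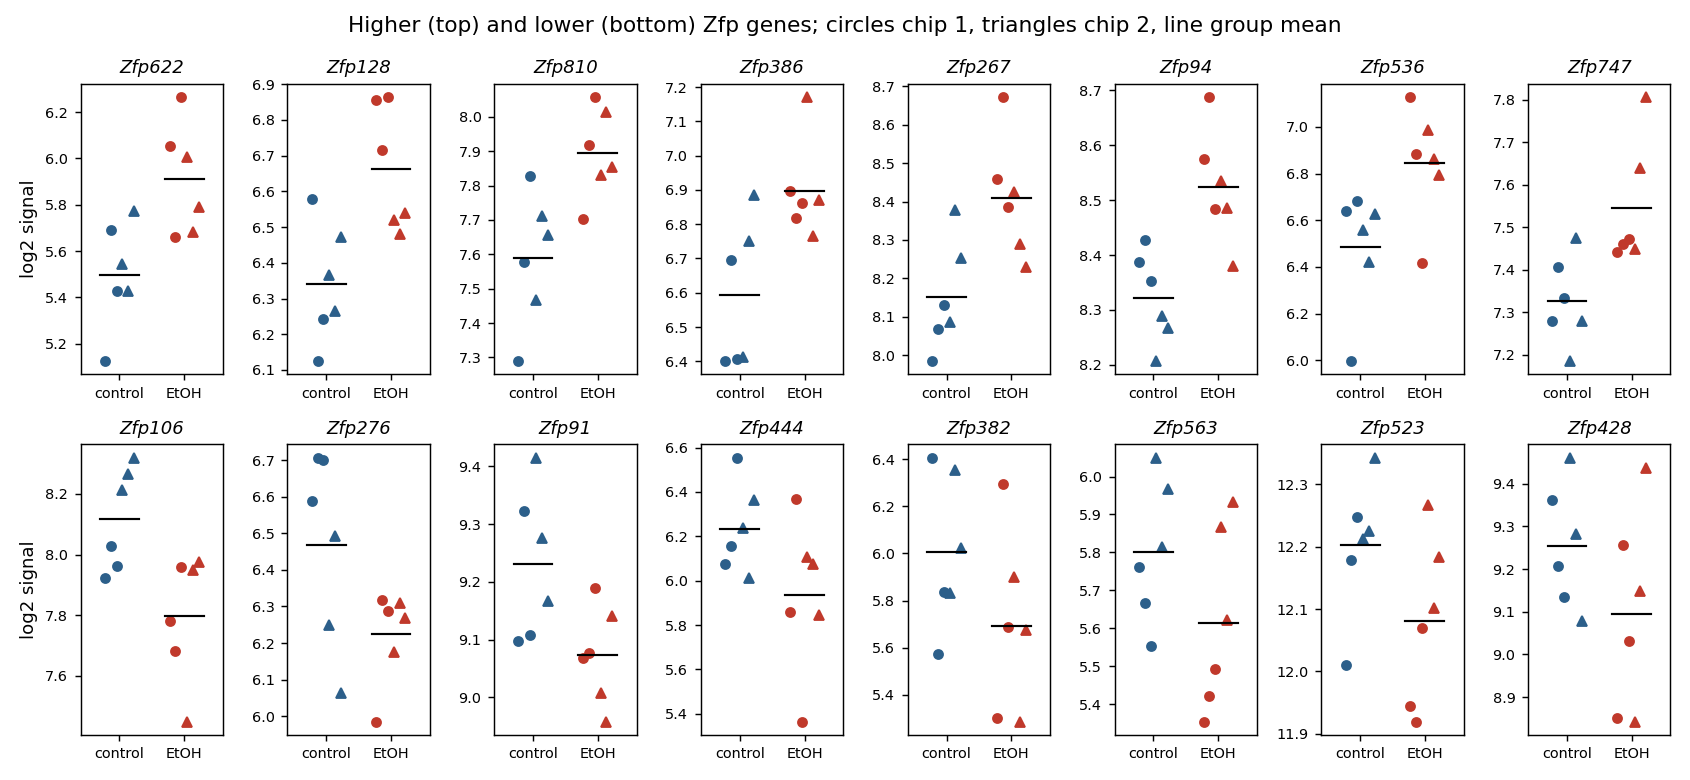
Log2 signal (vertical axes) of each mouse for the 8 Zfp genes with the smallest p on the higher side (top) and the 8 on the lower side (bottom), in controls (blue) and ethanol-exposed mice (red, EtOH). Circles are chip 1, triangles chip 2 and lines group means, and the groups overlap in every panel.

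Zfp genes of known function were grouped by role. Of 4 KRAB proteins with known targets, 3 had a probe annotated with their symbol and 2 were detected on 10 or more arrays. Zfp445, which guards imprinted methylation, had 6.63, 7.22 and 7.47 in ethanol-exposed mice and 6.51, 7.30 and 7.70 in controls, a difference of -0.14 (SE 0.20). Zfp809, which recruits TRIM28 to retroviral sequences in embryonic stem cells, had 6.66, 7.06 and 7.18 against 6.83, 7.12 and 7.26, a difference of -0.10 (SE 0.10). Both differences were within the spread between mice, and that of Zfp809 was 0.078 on chip 1 and -0.28 on chip 2 (limma, adjusted p = 0.910 for Zfp445 and adjusted p = 0.860 for Zfp809).

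Of 15 transcription factors outside the KRAB class, 14 had a probe annotated with their symbol. Of these, 10 were detected on 10 or more arrays, 7 with a positive and 3 with a negative difference. Besides Zfp536, none had an unadjusted p under 0.05. Zfp281, which binds G-rich promoters, had 9.17, 9.26 and 9.30 against 8.92, 9.05 and 9.45. All 6 ethanol-exposed mice exceeded the median of the controls, and the difference was 0.13 (SE 0.090). Its relative Zfp148 differed by 0.085 (SE 0.095). Zfp644, a partner of the methyltransferases G9a and GLP, differed by 0.14 (SE 0.11), with the contrast between chips given above. Zfp521, a driver of neural differentiation in embryonic stem cells, and Zfp703 differed by 0.022 and 0.0025, and Zfp704 by 0.061. The 3 negative differences were those of Zfp335, a regulator of neural progenitor proliferation (-0.049), Zfp219 (-0.065) and Zfp423, a cofactor of SMAD and retinoic acid signalling (-0.11, detected on 10 arrays).

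All 7 genes that act on RNA, the spindle, ubiquitin or the ribosome were detected. Zfp622 and Zfp106 lay at the opposite ends described above and Zfp91 on the lower side. Zfp36 (tristetraprolin), which speeds the decay of mRNAs with AU-rich elements, had 6.65, 6.93 and 7.17 against 6.55, 6.79 and 7.19, a difference of 0.11 (SE 0.11). Zfp638, which takes part in silencing unintegrated retroviral DNA, differed by 0.17 (SE 0.11). Zfp207, a kinetochore protein, and Zfp326, which couples transcription to splicing, differed by 0.024 and 0.018 with SEs of 0.077 and 0.072.

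Of 3 neuronal genes, Zfp369 and Zfp365 were detected. Zfp369, a relative of the neurotrophin receptor interacting factor, had 9.07, 9.35 and 9.45 in ethanol-exposed mice and 8.85, 9.11 and 9.19 in controls. The difference was 0.22 (SE 0.084, limma, adjusted p = 0.720), 5 of 6 ethanol-exposed mice lay above every control, and the chips gave 0.22 each. Zfp365, which binds the schizophrenia-associated protein DISC1, had 12.32, 12.76 and 12.87 against 12.39, 12.63 and 12.88 and differed by 0.022 (SE 0.13). Its signal was 0.37 higher on chip 2 than on chip 1 (limma, adjusted p = 0.0682).

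Trim28 was measured by 1 probe, detected on 12 arrays. Its lowest, median and highest log2 signals were 10.90, 11.10 and 11.24 in ethanol-exposed mice and 10.92, 11.11 and 11.29 in controls, so the groups lay on the same range. The difference was -0.010 (SE 0.088, 95% interval -0.20 to 0.18, limma, adjusted p = 0.986), and a two-sided exact permutation test over 924 splits of the mice gave p = 0.877, where 0.00216 is the smallest it can give. The difference was 0.015 on chip 1 and -0.036 on chip 2. A difference between the bounds of this interval could not be told from none with 6 mice per group.

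A list of 41 genes holds Trim28 and genes of proteins that work with it, and 29 of them, Trim28 included, passed the detection limit for testing. Apart from Trim28 these were 28 genes, 16 with a positive and 12 with a negative difference, with a median of 0.036, and 0 passed the adjusted threshold. At an unadjusted p under 0.05, 2 were higher and 0 lower, at a background of 3.79% and 2.71% of all genes. The count of 2 became 1 without control replicate 1 or 4 and 6 without control replicate 5, with no background computed for these. The 2 genes were Senp7, a SUMO protease (7.06, 7.36 and 7.48 against 6.81, 7.07 and 7.34, difference 0.28, SE 0.10, limma, adjusted p = 0.720), and Atf7ip, the partner that stabilises SETDB1 (9.46, 9.63 and 9.74 against 9.31, 9.42 and 9.62, difference 0.18, SE 0.077, limma, adjusted p = 0.748). In both, 3 of 6 ethanol-exposed mice lay above every control. Setdb1 itself differed by 0.042 (SE 0.099). The heterochromatin protein 1 genes Cbx3 and Cbx5 differed by -0.022 (SE 0.073) and -0.0036 (SE 0.092). The chromatin remodeller Atrx differed by 0.27 (SE 0.14), and in the other direction Senp1 by -0.26 (SE 0.13) and Chd3 by -0.17 (SE 0.083).

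**Figure D5:**
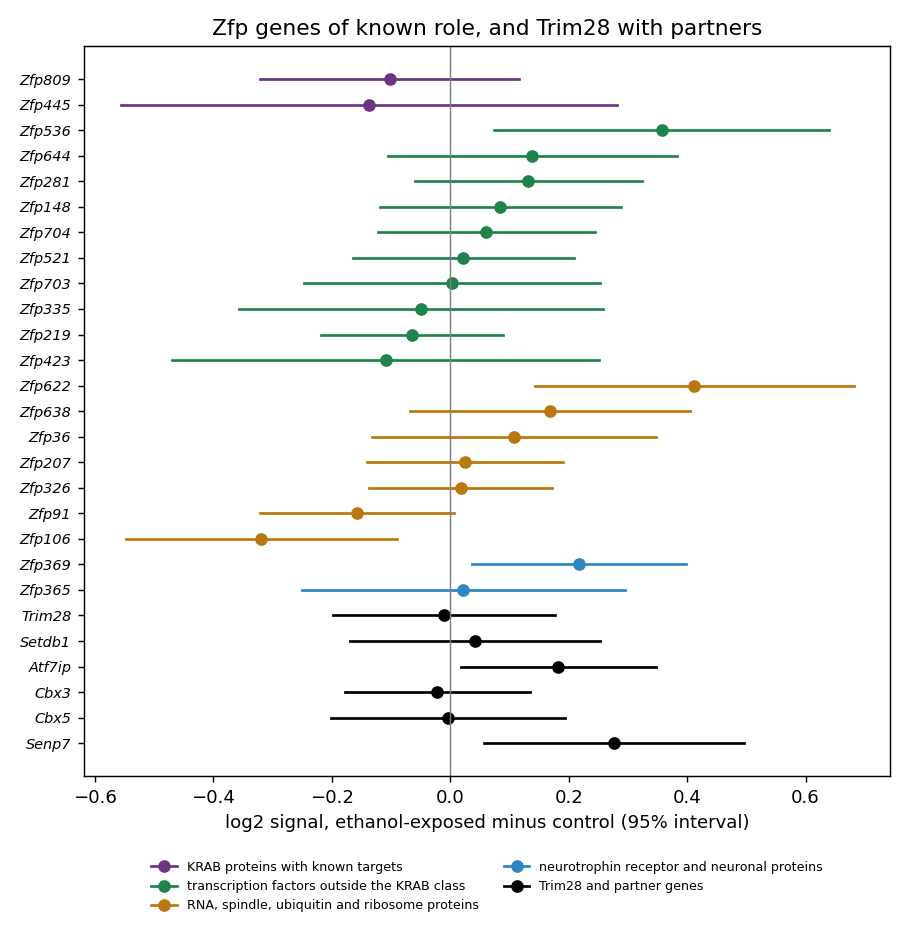
Log2 difference between ethanol-exposed and control mice (points) with its 95% interval (lines, horizontal axis) for Zfp genes of known role, coloured by role, and for Trim28 with 5 partner genes (black). The intervals of Zfp622, Zfp536, Zfp369, Atf7ip and Senp7 lie above 0 and that of Zfp106 below it, before any adjustment for the number of probes tested.

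Zfp genes often lie in clusters. Among the 184 genes there were 30 pairs of direct neighbours in the order of protein-coding genes, which held 50 genes. In 14 pairs both differences were positive, in 4 both were negative and in 12 they had opposite signs. With 72.8% of the 184 genes positive, many pairs share a sign in any case, and whether neighbours moved together was not tested. Of 5 runs of 3 or more neighbours, the longest held 6 genes (Zfp398, Zfp282, Zfp212, Zfp956, Zfp777 and Zfp746), whose differences were 0.14, 0.086, 0.037, -0.081, -0.015 and 0.0093. The run of Zfp84, Zfp30, Zfp790 and Zfp940 was positive throughout, from 0.021 to 0.16, with no gene at an unadjusted p under 0.05. Neighbours of this kind can have similar sequences, and whether their probes bind more than 1 transcript was not tested.

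Several probes of 1 gene did not always go the same way. Of the 184 genes, 132 had 1 detected probe and 52 had 2 to 4. In 32 of the 52 all probes had the same sign (24 positive, 8 negative) and in 20 they had both signs.

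The spread between mice was also compared between the groups. The ratio of the SD in ethanol-exposed mice to that in controls had a median of 0.910 over the 184 genes, against 0.950 over all genes tested. It was above 1 in 81 of the 184 genes (44.0%), close to the 45.9% of all genes tested. A ratio below 1 means a narrower spread in ethanol-exposed mice.

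Between the chips, 27 Zfp genes had a higher mean on chip 2 and 8 a lower one at an unadjusted p under 0.05, at a background of 8.49% and 5.68% of all genes. Of these 1 was past the adjusted threshold, as were 0.446% of all probes. This was Zfp566, whose log2 signal on chip 2 minus that on chip 1 was -0.87 (limma, adjusted p = 0.00722) and was detected on 10 arrays. Its 6 values on chip 1 were 6.12, 6.14, 6.12, 6.12, 6.45 and 6.31, and those on chip 2 were 5.50, 5.57, 4.91, 5.07, 5.43 and 5.51, with no overlap. Each chip held 3 mice of either group, so the chips weigh equally in the group means, while the chip difference adds to the spread within groups. The group difference of Zfp566 was -0.089 (SE 0.26).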

How the data were processed

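Hippocampal RNA of 12 mice was hybridised to Illumina MouseWG-6 v2.0 arrays, and the authors summarised the beads in GenomeStudio 1.9.0. Their deposited tables hold the intensity of each probe before normalization with its detection p-value, and the intensity after quantile normalization, which served as an alternative. The deposited intensities were corrected here in limma 3.58.1 under R 4.3.3 (normexp fitted from the detection p-values, offset 16), brought to a common distribution by quantile normalization and expressed as log2 signals.

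Testing was limited to probes detected (p under 0.05) on 6 or more arrays (19288 probes, 10835 genes with a symbol). The fit was limma's on group, moderated by empirical Bayes and adjusted by Benjamini-Hochberg over all probes. Neither SDs nor p-values separate litters, and the number of arrays limits the precision. The fit was tested on simulated data. Named genes are the 8 with the smallest p on either side, Trim28, the genes of the role lists and the corepressor genes with an unadjusted p under 0.05; the clusters, the chip contrasts and the further genes listed were chosen after their values were seen. The Zfp genes and the lists were chosen with earlier results of these data known. Gene names come from the platform annotation, and the order of genes from RefSeq (GRCm38.p6). Alternatives were other scalings and background corrections, chip or replicate number as a block, single chips, other filters and leaving out each mouse. The planned grouping by protein structure was not run, since no protein sequences were used here.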

Additional observations from a re-analysis of the deposited data

Results flagged for a closer look

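Of 72 groups of 6 mice checked, over the 36 probes of the genes named by rule, 6 held a mouse whose gap to its nearest neighbour took up an unusually large part of the range of the group (Dixon's test at 95%). Chance flags about 1 in 20 groups. Above the rest of their group lay ethanol-exposed replicate 4 for Zfp386 (log2 signal 7.172), ethanol-exposed replicate 2 for Zfp207 (9.511) and control replicate 5 for Zfp704 (9.323). Below it lay control replicate 4 for Zfp335 (6.022), control replicate 6 for Zfp369 (8.852) and control replicate 1 for Zfp809 (6.825). Without ethanol-exposed replicate 4 the difference of Zfp386 was 0.25, and without control replicate 6 that of Zfp369 was 0.17.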

How the results depend on the processing

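No Zfp gene passed an adjusted p of 0.05 in limma under any of the 24 alternatives. The signs of the 16 genes with the smallest p did not change in any in which they were tested (Zfp622 and Zfp382 were not among the probes detected on all 12 arrays). These genes were picked by their p in the main setting, and the alternatives reuse the same arrays. Their unchanged signs are therefore no independent support. Median scaling gave 2 Zfp genes higher in ethanol-exposed mice, a median difference of 0.02137, 1 corepressor gene at an unadjusted p under 0.05, 94 Zfp genes differing between chips and 4 with an interaction. That scaling split all calls at an unadjusted p under 0.05 into 147 higher and 637 lower probes, against 648 and 594 in the main setting. No background correction, the normexp offset of 50 and the authors' normalized table gave 4 corepressor genes each, lowered the difference of Zfp622 to 0.1694, 0.2492 and 0.1689, and the offset of 50 gave 1 Zfp gene lower. Chip 1 alone gave 1 Zfp gene lower, a median of 0.1226, a distance of 0.1102 to the median of all probes and a Trim28 difference of 0.01524. Chip 2 alone gave 8 genes higher, a median of 0.03042 and 0 corepressor genes. Fitting all probes gave 17 interactions. The choroid plexus covariate, chosen after the data were seen, gave 9 genes higher and 1 corepressor gene. The distance of the median of the Zfp genes from that of all probes, also added later, was 0.02952 to 0.1102 over the alternatives. Leaving out each mouse in turn gave 12 to 25 Zfp genes higher, 1 to 3 lower, 1 to 6 corepressor genes, 6 to 14 interactions and a Trim28 difference of -0.04861 to 0.02873. The causes of these changes were not tested. For the chip and interaction counts under these alternatives, and for every count without a mouse, no share over all probes was computed. These counts therefore stand without a background and are not read as a trait of the Zfp genes. With the replicate number as a block, 20 Zfp genes were higher and 2 lower, as were 3.63% and 3.56% of all probes. Same-numbered mice showed no clear pairing (correlations of -0.0178 to 0.21, and 2 of 6 correlated best with their own number). Replicate number is tied to the chip and the pairs are few, so this check cannot decide whether mice were paired. The number of mice and, for dim genes, the signal over background limit what differences can be seen.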
